A study of Mus musculus with 4 samples.

Results

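A set of 40 genes of the cell cycle was followed through hepatic CD8 T cells, as 16 genes of DNA replication and S phase entry and 24 genes of G2 and mitosis. They were picked by symbol from the 15367 symbols of the processed expression table, and all 40 were found. Those with a mean of 1 or more across all 4 libraries numbered 37, namely all 16 S phase members and 21 of the 24 mitotic members, among 9805 genes in all. The cells came from the livers of adult C57BL/6 mice kept on an MCD diet for 4 weeks, a feeding model of steatohepatitis, and were isolated by flow cytometry. The groups compared were wild type mice (2 libraries) and mice labelled perforin knockout (2 libraries), and the diet was common to both, so no library shows CD8 T cells without it. The allele, and whether a library came from 1 animal or several, are unknown here. Libraries are called wild type 1 and 2 and knockout-labelled 1 and 2, after their titles. The sources used here do not name the unit of the values, which were read from their properties as FPKM, a measure scaled to sequencing depth and transcript length. Levels of different genes are set side by side on that reading. Where values are given as wild type against another pair, the pair is knockout-labelled 1 and 2, and each pair is in the order 1, 2.

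Resting T cells hold the cell cycle shut, and antigen and cytokines open it through D-type and E-type cyclins, which release E2F factors from the retinoblastoma protein. E2F then turns on the genes of replication licensing, the MCM helicase and nucleotide supply. The genes of G2 and mitosis come on later. They are controlled mainly by the DREAM complex and the MYB and FOXM1 factors, which act at a promoter element called the cell cycle homology region (CHR). Many of these promoters also hold CCAAT boxes, which bind the factor NF-Y. In the liver, CD8 T cells divide on activation and are otherwise at rest, and these genes are the usual RNA marks of dividing cells. In bulk RNA fewer cells of a type and less RNA per cell cannot be told apart.

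Elements known for each phase were searched in the promoters. RefSeq promoters (GRCm38.p6, 250 bases before to 50 after the transcription start) were matched for 13 S phase members, with 14 promoters, and for 19 mitotic members, with 19 promoters. The CHR letters TTTGAA or TTCGAA, searched on both strands, were present in 15 of 19 mitotic promoters (78.9%) and 2 of 14 S phase promoters (14.3%), against 19.2% of all 32851 promoters. The CCAAT box, CCAAT on both strands, was present in 17 of 19 mitotic promoters (89.5%) and 9 of 14 S phase promoters (64.3%), against 37.4% of all. All 15 mitotic promoters with a CHR match also held a CCAAT match, a pair found in 7.52% of all promoters. An E2F site, searched as TTTCCCGC, TTTGGCGC, TTTCGCGC or TTTGCCGC on both strands, was present in 5 of 14 S phase promoters (35.7%) and 1 of 19 mitotic promoters (5.26%), against 2.26% of all.

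The CHR matches of mitotic promoters lay near the start. A match that began within 50 bases of the start was found in 14 of 19 mitotic promoters (73.7%), in 0 of 14 S phase promoters and in 5.31% of all promoters. Among 62 promoters of further mitosis genes 36 had such a match (58.1%), and among 51 promoters of further S phase genes 6 did (11.8%). Birc5 and Nusap1 held none of the searched letters in this window, and Ccnb1 and Cenpe held CCAAT letters without CHR letters. A match is a run of letters and does not show a bound factor.

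Some promoters are shown because they carry these elements and belong to members on which the values below turn. They are Mcm6 (chr1:128359656-128359955, minus strand) and Mcm3 (chr1:20820263-20820562, minus strand), the S phase members of highest level with an E2F match, and Bub1 (chr2:127831810-127832109, minus strand), Ube2c (chr2:164769679-164769978, plus strand) and Aurka (chr2:172370521-172370820, minus strand), the mitotic members of widest range over the libraries with CHR and CCAAT matches. Each is written 5′ to 3′ on the gene's strand, and capitals mark E2F, CHR and CCAAT matches on either strand, which overlap in places. The Mcm6 and Aurka windows shared no checked stretch with a GENCODE M21 transcript of their gene, so their strand and start rest on RefSeq alone.
Mcm6: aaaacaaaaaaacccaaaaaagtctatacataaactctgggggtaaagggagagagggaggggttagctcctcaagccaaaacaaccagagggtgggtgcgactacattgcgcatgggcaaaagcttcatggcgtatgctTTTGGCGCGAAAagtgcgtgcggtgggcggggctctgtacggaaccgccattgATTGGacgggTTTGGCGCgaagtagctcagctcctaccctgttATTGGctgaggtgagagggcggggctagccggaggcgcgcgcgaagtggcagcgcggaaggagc
Mcm3: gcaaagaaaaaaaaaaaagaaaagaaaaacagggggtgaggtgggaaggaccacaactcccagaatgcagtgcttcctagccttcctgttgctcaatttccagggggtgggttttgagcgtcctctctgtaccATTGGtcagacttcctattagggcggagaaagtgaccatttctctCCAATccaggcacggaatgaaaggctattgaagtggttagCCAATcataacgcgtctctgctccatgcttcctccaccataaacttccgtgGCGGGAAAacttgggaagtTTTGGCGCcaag
Bub1: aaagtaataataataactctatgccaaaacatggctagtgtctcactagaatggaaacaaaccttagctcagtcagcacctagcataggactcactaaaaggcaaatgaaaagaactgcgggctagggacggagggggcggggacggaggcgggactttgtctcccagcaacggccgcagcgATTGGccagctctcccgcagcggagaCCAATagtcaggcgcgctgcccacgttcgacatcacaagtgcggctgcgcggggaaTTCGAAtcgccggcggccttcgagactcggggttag
Ube2c: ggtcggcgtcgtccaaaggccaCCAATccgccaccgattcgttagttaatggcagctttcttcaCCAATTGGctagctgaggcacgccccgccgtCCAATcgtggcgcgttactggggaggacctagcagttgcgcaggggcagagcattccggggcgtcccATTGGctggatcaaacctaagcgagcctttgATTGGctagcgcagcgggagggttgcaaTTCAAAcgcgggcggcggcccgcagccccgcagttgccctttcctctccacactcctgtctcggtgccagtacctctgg
Aurka: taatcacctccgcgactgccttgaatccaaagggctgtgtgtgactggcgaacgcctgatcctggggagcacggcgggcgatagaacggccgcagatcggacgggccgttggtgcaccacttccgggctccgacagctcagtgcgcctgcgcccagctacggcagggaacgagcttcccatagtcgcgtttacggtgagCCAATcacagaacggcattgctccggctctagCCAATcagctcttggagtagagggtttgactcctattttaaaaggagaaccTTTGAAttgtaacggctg

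**Figure D1:**
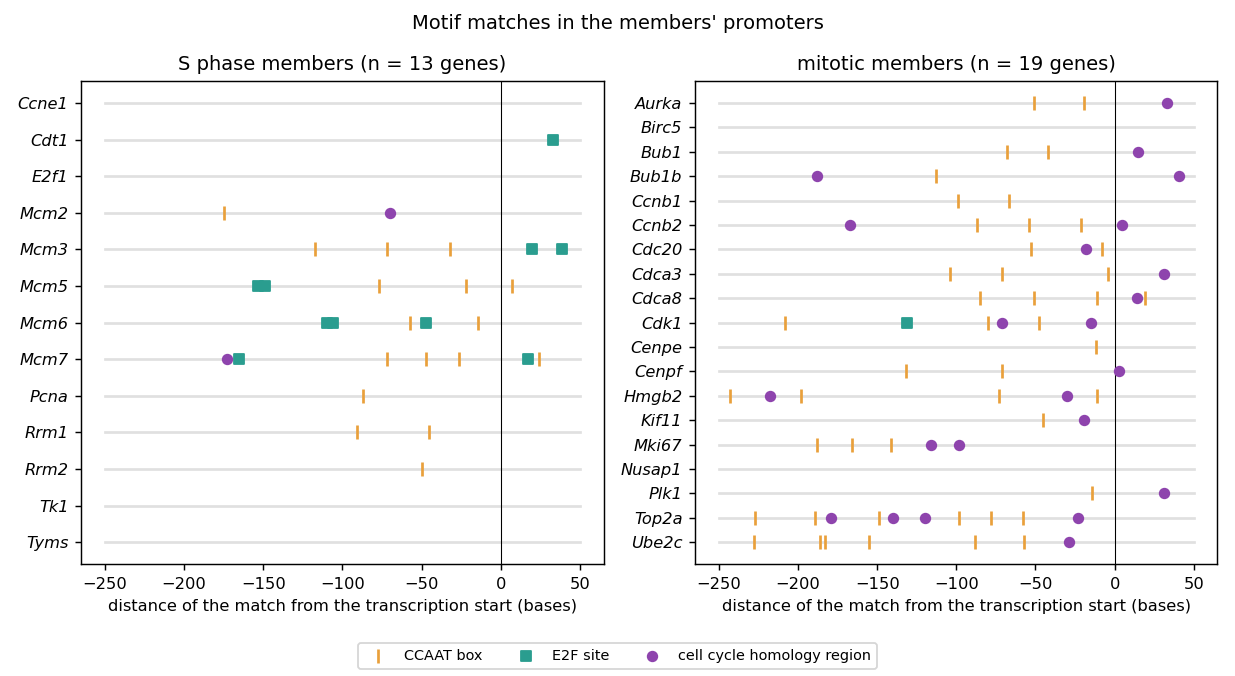
Matches to the E2F site (squares), the cell cycle homology region (circles) and the CCAAT box (bars) in the promoters of 13 S phase members (left) and 19 mitotic members (right), by distance in bases from the transcription start (vertical line). Each row is a gene, and the row of Mcm7 holds 2 promoters. Circles lie near the start in most rows on the right, and squares lie mostly on the left.

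The libraries differed in ways the groups do not explain. The column sums were 378364 and 392785 in wild type against 334493 and 383498. Knockout-labelled 1 correlated with the other 3 at 0.914 to 0.924 (Pearson, across genes, which are not independent replicates), while the other 3 correlated at 0.961 to 0.969. Prf1, the targeted gene, stood at 125 FPKM in wild type 1, 113 in wild type 2, 95.4 in knockout-labelled 1 and 98.7 in knockout-labelled 2, so the values do not check the labels, and each direction between groups rests on the labels alone. Cd8a, which encodes a chain of the CD8 coreceptor, stood at 283 and 289 in wild type against 289 and 272. The number of reads behind a value is unknown, and no value could be given a counting interval.

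The helicase and licensing genes of S phase included the most abundant and steadiest member, Mcm6. Mcm6, a subunit of the MCM2-7 helicase that unwinds DNA at replication forks, stood at 76.2 FPKM in wild type 1, 83.7 in wild type 2, 77.7 in knockout-labelled 1 and 76.7 in knockout-labelled 2. Mcm3, another subunit, stood at 38.7 and 43.3 in wild type against 55.2 and 40.2. These levels put Mcm6 first among all 40 members, and its 4 libraries lay within 0.13 on the log2 scale. Mcm2 stood at 26.4 and 37.3 in wild type against 43.5 and 33.4 and Mcm5 at 21.9 and 28.1 in wild type against 35.7 and 19.9. Mcm4, with 13.0 and 17.0 in wild type against 14.8 and 16.4, and Mcm7, with 18.9 and 22.3 in wild type against 20.4 and 21.9, were the lowest of the 6 subunits. In all 6 the groups overlapped.

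Cdt1, which loads the helicase at origins and is destroyed once S phase begins, stood at 41.4 FPKM in wild type 1, 39.9 in wild type 2, 42.3 in knockout-labelled 1 and 38.0 in knockout-labelled 2. That is close to the level of the Mcm genes, and its range over the libraries was 0.15 on the log2 scale. Gins2, a subunit of the GINS complex that activates the helicase, was much less abundant and stood at 5.44 FPKM in wild type 1, 3.57 in wild type 2, 0.783 in knockout-labelled 1 and 1.38 in knockout-labelled 2. It was lower in both knockout-labelled libraries than in both wild type libraries.

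The G1/S regulators differed in level and in the order of the libraries. Ccne1, which encodes cyclin E1, the partner of CDK2 at S phase entry, stood at 14.5 FPKM in wild type 1, 17.3 in wild type 2, 10.1 in knockout-labelled 1 and 11.8 in knockout-labelled 2, with no overlap between the groups. Ccne2, encoding cyclin E2, stood at 7.27 and 5.37 in wild type against 6.29 and 5.35, and here the groups overlapped. E2f1, the activating transcription factor upstream of most S phase members, stood at 1.38 and 2.34 in wild type against 3.81 and 2.61 and was higher in both knockout-labelled libraries.

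Among the nucleotide supply genes 1 was abundant and 3 were not. Rrm1, the large subunit of ribonucleotide reductase, stood at 28.3 FPKM in wild type 1, 41.1 in wild type 2, 26.5 in knockout-labelled 1 and 29.1 in knockout-labelled 2. Its small subunit Rrm2, the chain made mainly in dividing cells, stood at 1.23 and 4.82 in wild type against 1.32 and 1.34. Wild type 2 was thus 3.91-fold above wild type 1 for Rrm2, and the other 3 libraries were alike. Tyms, the thymidylate synthase gene, stood at 2.64 and 1.86 in wild type against 2.07 and 3.03, and Tk1, the thymidine salvage kinase, at 2.66 and 2.23 in wild type against 2.88 and 2.30. Pcna, the sliding clamp of DNA polymerases, stood at 1.71 and 2.74 in wild type against 0.642 and 2.28. The clamp was therefore listed far below the helicase that it works beside, at a mean of 1.84 against 15.3 to 78.6 for the 6 MCM subunits.

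Some member values are uncertain for annotated reasons. Near-identical copies (at least 90% identity over at least 50% of the longest transcript, GENCODE M21) exist for Pcna, Mcm4, Mcm7, Ccnb1, Plk1, Cdc20 and Gins2, for Gins2 in transcripts of its antisense neighbour Gse1, and reads could be lost to them or gained from them. Ccne2, Gins2, Mcm7, Tk1, Ccna2, Plk1, Cdca8, Cdc20, Ube2c, Kif20a and Nusap1 overlap an exon of a gene on the opposite strand, and a library without strand information cannot separate the 2. How such reads were counted is unknown here.

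The mitotic members were less abundant as a set and spread far more between libraries. Their median level was 4.87 and 11.9 FPKM in wild type 1 and 2, against 10.4 and 6.63, over the 21 with a mean of at least 1. For the 16 S phase members it was 13.8 and 17.2 against 12.4 and 14.1. The range of a gene over the 4 libraries had a median of 1.29 on the log2 scale for mitotic members and 0.56 for S phase members. Mitotic levels were high in wild type 2 and knockout-labelled 1 and low in the other 2 libraries, so they did not sort by group.

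**Figure D2:**
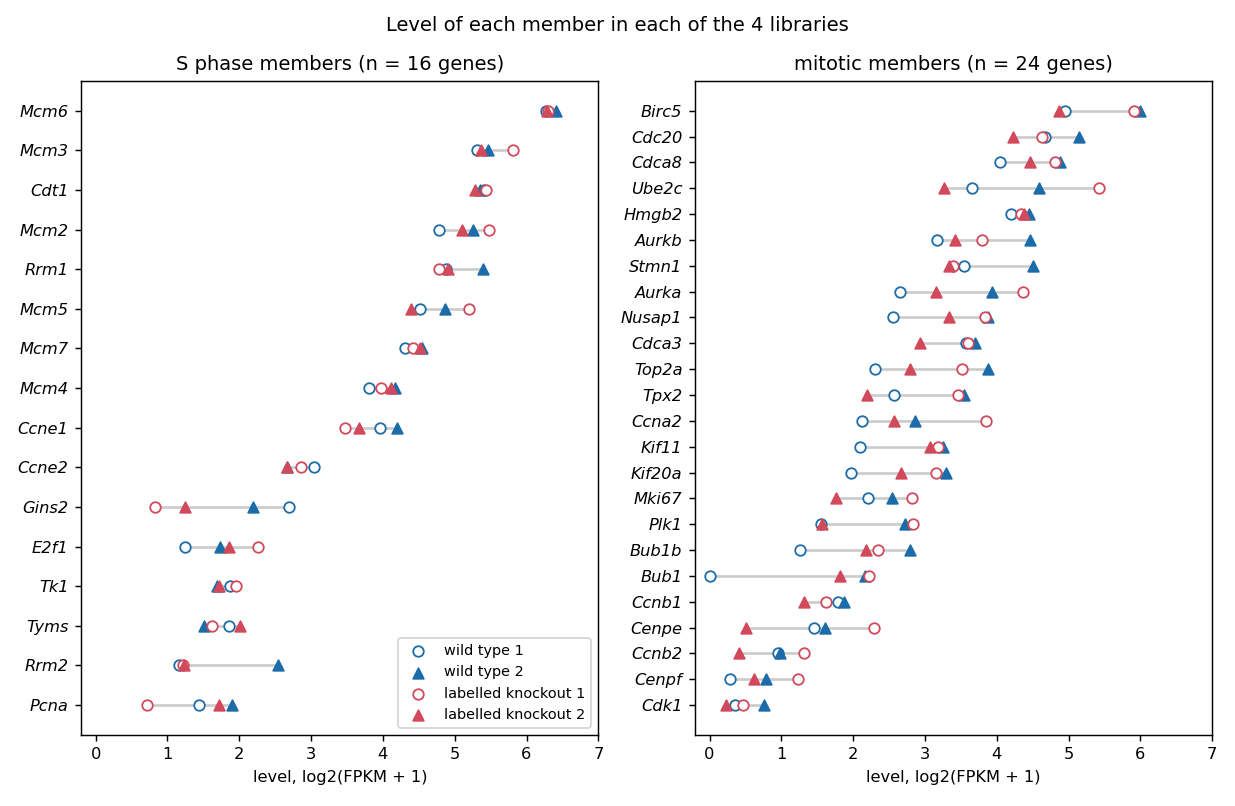
Level of each member, log2(FPKM + 1), in wild type (blue) and labelled knockout (red) libraries, with replicate 1 as open circles and replicate 2 as filled triangles. Grey lines join the lowest and highest of the 4 libraries, and genes are ordered by mean level. S phase members (left) lie close together for most genes, while for most mitotic members (right) wild type 2 and knockout-labelled 1 lie to the right of the other 2 libraries.

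Among the cyclins and kinases that drive mitosis, Aurka, the spindle pole kinase whose promoter is shown above, stood at 5.31 FPKM in wild type 1, 14.3 in wild type 2, 19.5 in knockout-labelled 1 and 7.92 in knockout-labelled 2. Plk1, the polo-like kinase of mitotic entry, stood at 1.94 and 5.58 in wild type against 6.11 and 1.97. Both were at least 2.46-fold higher in the higher library of each group. Ccna2, encoding cyclin A2 of S phase and G2, stood at 3.37 and 6.30 in wild type against 13.4 and 4.96. Ccnb1, encoding cyclin B1, the activating partner of CDK1, stood at 2.46 and 2.67 in wild type against 2.09 and 1.48, with a small spread. Ccnb2 at 0.941 and 0.974 in wild type against 1.48 and 0.324 and Cdk1 at 0.281 and 0.700 in wild type against 0.388 and 0.168 had means under 1 and were not tested. They kept the same order, with the higher value in wild type 2 and in knockout-labelled 1.

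The chromosomal passenger complex, which corrects faulty chromosome attachments and guides cytokinesis, held the most abundant mitotic member. Birc5, encoding survivin, stood at 29.9 FPKM in wild type 1, 62.6 in wild type 2, 59.1 in knockout-labelled 1 and 28.1 in knockout-labelled 2. The higher library was 2.09-fold above the lower in wild type, and 2.11-fold among knockout-labelled libraries, and the 2 high libraries nearly coincided across the groups. Aurkb, the kinase of the complex, stood at 8.005 and 21.0 in wild type against 12.9 and 9.65, and Cdca8, encoding borealin, at 15.4 and 28.5 in wild type against 26.9 and 21.2. The kinetochore and checkpoint genes were less abundant. Bub1, a checkpoint kinase, was listed at 0 in wild type 1 and stood at 3.47 in wild type 2, against 3.67 and 2.52. Bub1b, encoding BubR1, an inhibitor of the anaphase promoting complex, stood at 1.40 and 5.94 in wild type against 4.08 and 3.54. Cenpe, a kinetochore motor gene, stood at 1.73 and 2.04 in wild type against 3.88 and 0.421. The widest gap for Cenpe was between the 2 knockout-labelled libraries. Cenpf, at 0.222 and 0.725 in wild type against 1.36 and 0.538, had a mean under 1.

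Ube2c, the ubiquitin-conjugating enzyme of the anaphase promoting complex, stood at 11.5 FPKM in wild type 1, 23.1 in wild type 2, 42.0 in knockout-labelled 1 and 8.60 in knockout-labelled 2. This was a 4.89-fold difference between 2 libraries of the same label. The Ube2c promoter above holds 1 CHR and 6 CCAAT matches, and a link between matches and spread was not tested. Cdc20, the activator of that complex, stood at 24.5 and 34.4 in wild type against 23.8 and 17.7, and Cdca3, an entry factor of mitosis, at 10.9 and 11.9 in wild type against 11.1 and 6.63. In the spindle group, Kif11, the motor that separates the poles, stood at 3.26 and 8.50 in wild type against 8.11 and 7.38. Kif20a, a motor of cytokinesis, stood at 2.92 and 8.82 in wild type against 7.90 and 5.37, and Nusap1, a spindle-bundling protein gene, at 4.87 and 13.7 in wild type against 13.3 and 9.12. Wild type 1 was the lowest library for all 3. Tpx2, an activator of Aurora A, stood at 4.92 and 10.7 in wild type against 9.98 and 3.58, and Stmn1, a microtubule-destabilizing protein gene, at 10.6 and 21.7 in wild type against 9.52 and 9.10. For Stmn1 wild type 2 alone was high.

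Top2a, the topoisomerase that untangles sister chromatids, stood at 3.92 FPKM in wild type 1, 13.6 in wild type 2, 10.4 in knockout-labelled 1 and 5.92 in knockout-labelled 2. Mki67, whose product Ki-67 coats mitotic chromosomes and is the usual stain for cycling cells, stood at 3.61 and 4.84 in wild type against 6.05 and 2.38. Mki67 kept the order of the other mitotic members with a smaller step in wild type, 1.34-fold. Hmgb2, a chromatin protein gene also used outside mitosis, stood at 17.3 and 20.8 in wild type against 19.3 and 19.7 and was nearly level over the libraries.

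Within each group the mitotic members kept a common order. The directions counted here were not planned and are those that the mitotic values showed, so the counts describe these values and test nothing. Wild type 2 was above wild type 1 for 21 of 21 tested mitotic members, where 50.4% of all tested genes had that order, and for 24 of 24 when the untested members were included. Knockout-labelled 1 was above knockout-labelled 2 for 20 of 21, or 23 of 24 with the untested ones, where 40.4% of all tested genes had that order. Hmgb2 was the exception in both counts, before rescaling. Both orders together held for 20 of 21 mitotic members and for 20.5% of all tested genes. With a step of at least 0.5 on the log2 scale in both pairs, 7 of 21 mitotic members and 2.75% of all tested genes remained.

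The order of S phase members was mixed. Wild type 2 was above wild type 1 for 11 of 16, knockout-labelled 1 was above knockout-labelled 2 for 8 of 16, and 5 of 16 had both orders. A step of at least 0.5 in both pairs was reached by 0 of 16. The median step between the wild type libraries was 0.98 on the log2 scale for mitotic and 0.23 for S phase members, and 0.00 for all tested genes. Between the 2 knockout-labelled libraries it was 0.50 and 0.00, and -0.14 for all tested genes. After upper-quartile rescaling these 3 medians of knockout-labelled 1 minus 2 were 0.66, 0.14 and 0.01, and that order held for 21 of 21 mitotic and 12 of 16 S phase members and for 50.6% of all tested genes. The knockout-labelled pair includes knockout-labelled 1, the library that correlated least with the others. These shares are descriptions of 4 libraries, since genes that act together are not independent and no test was made over the members.

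**Figure D3:**
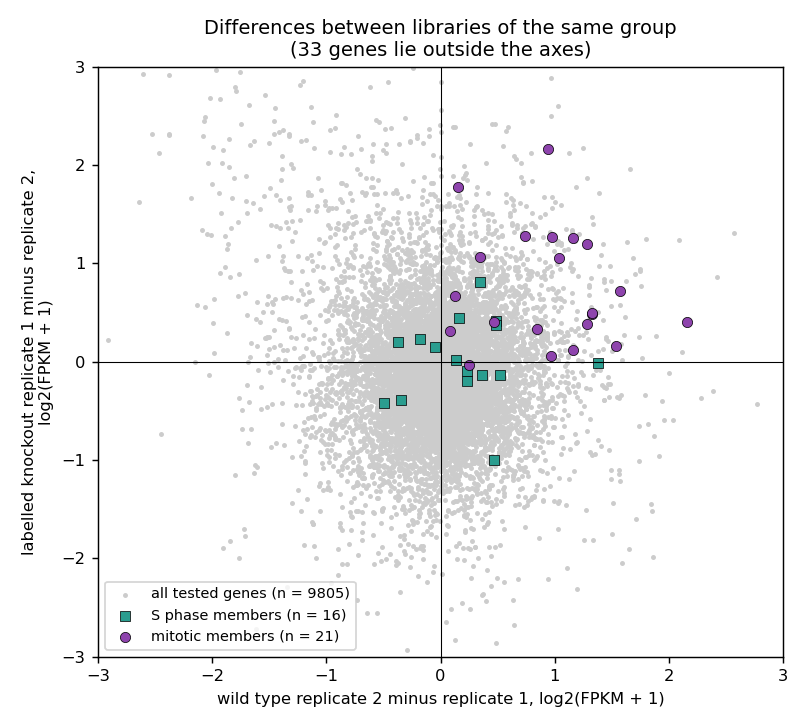
Difference between the 2 wild type libraries (x axis, replicate 2 minus replicate 1) and between the 2 knockout-labelled libraries (y axis, replicate 1 minus replicate 2), both in log2(FPKM + 1), for 9805 tested genes (grey), 16 S phase members (squares) and 21 mitotic members (circles). Of the circles, 20 of 21 lie to the upper right of the origin, while the squares lie around the centre on both sides of the axes.

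A contrast inside each library does not move with the library's scale except through the pseudocount. It kept the within-group order, but it holds the mitotic values that showed that order and is not separate support. The mean log2 level of mitotic members minus that of S phase members was -0.85 and -0.12 in wild type 1 and 2. It was 0.07 and -0.66 in the 2 knockout-labelled libraries. The group means were -0.49 ± 0.52 (SD, n = 2) and -0.29 ± 0.51 (SD, n = 2), a difference of 0.19 that is smaller than either SD. Without knockout-labelled 1 the difference was -0.17, without wild type 1 it was -0.17, and without wild type 2 or knockout-labelled 2 it was 0.56 in each case.

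The comparison between wild type and labelled knockout asked whether cell cycle RNA of hepatic CD8 T cells differed between the libraries of these labels. Among the 37 tested members 0 passed limma at an adjusted p under 0.05, where 0.0% of all 9805 tested genes passed, and the smallest adjusted p of a member was 0.866. At an unadjusted p under 0.05 there was 1 member, Gins2, or 1 of 37, where 4.79% of all tested genes, or 470, reached it. These counts moved with single libraries, to 207 genes and 1 member without wild type 1, 251 and 2 without wild type 2, 346 and 1 without knockout-labelled 1, and 2073 and 3 without knockout-labelled 2. For S phase members the median log2 fold, labelled knockout minus wild type on the log2(FPKM + 1) scale, was 0.01, and for mitotic members 0.06, beside -0.08 over all tested genes. The mitotic median depended on single libraries. It was -0.38 without wild type 1 and 0.60 without wild type 2, and -0.40 and 0.44 without knockout-labelled 1 and 2. The S phase median was between -0.07 and -0.00 in these 4 settings, below its value over all libraries in each.

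Few members separated the groups. Both knockout-labelled libraries were below both wild type libraries for 5 of 37 members, where 21.9% of all tested genes did so, and above for 1, where 13.9% did so. The 5 were Gins2, Ccne1, Ccnb1, Cdc20 and Stmn1, and the 1 was E2f1. After upper-quartile rescaling 3 were below and 1 above, beside 18.6% and 17.4% of all tested genes. The step between libraries of the same group, averaged over both groups, was larger than the difference between the group means for 31 of 37 members (83.8%), where 64.1% of all tested genes had that relation. Its median was 0.90 on the log2 scale for mitotic members and 0.31 for S phase members, beside 0.38 over all tested genes. The median difference between groups was 0.24, 0.16 and 0.27 in the same order. Steps and differences were taken here without their sign.

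Gins2 had a log2 fold of -1.40 (SE 0.44, 95% interval -2.40 to -0.40; limma adjusted p = 0.866). Its level is low, and the gene overlaps Gse1 on the other strand. Ccne1 had -0.50 (SE 0.29, 95% interval -1.15 to 0.15; limma adjusted p = 0.866) and E2f1 0.56 (SE 0.43, 95% interval -0.42 to 1.55; limma adjusted p = 0.866). Among abundant members the interval was narrower, with -0.05 (SE 0.24, 95% interval -0.59 to 0.49; limma adjusted p = 0.975) for Mcm6 and -0.02 (SE 0.24, 95% interval -0.58 to 0.54; limma adjusted p = 0.992) for Cdt1, and both turned positive under each rescaling.

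The mitotic intervals were wider for most members, with a median SE of 0.45 against 0.31 for S phase members. Birc5 had -0.08 (SE 0.43, 95% interval -1.07 to 0.90; limma adjusted p = 0.976) and Mki67 -0.09 (SE 0.45, 95% interval -1.11 to 0.93; limma adjusted p = 0.976). The lowest folds were those of Stmn1 at -0.66 (SE 0.37, 95% interval -1.49 to 0.18; limma adjusted p = 0.866) and Cdc20 at -0.48 (SE 0.29, 95% interval -1.15 to 0.19; limma adjusted p = 0.866). The highest were those of Bub1, at 0.94 (SE 0.68, 95% interval -0.63 to 2.50; limma adjusted p = 0.866), which rests on the 0 listed in wild type 1, and Ccna2, at 0.71 (SE 0.48, 95% interval -0.38 to 1.81; limma adjusted p = 0.866). For Aurka and Ube2c, with promoters shown above, the folds were 0.46 and 0.22, and each turned negative without knockout-labelled 1 or without wild type 1. Intervals that cross 0 do not show that the groups are alike.

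**Figure D4:**
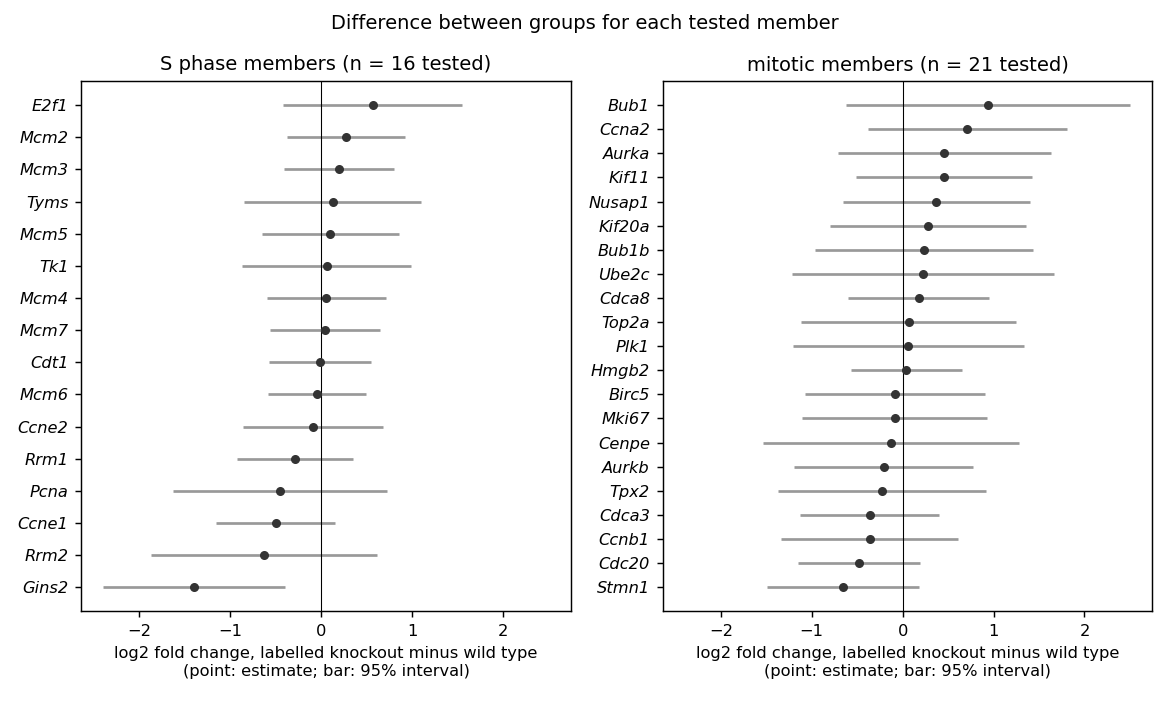
Log2 fold change of each tested member, labelled knockout minus wild type on the log2(FPKM + 1) scale, with its 95% limma interval, for 16 S phase members (left) and 21 mitotic members (right). The interval of Gins2 alone excludes 0, and its adjusted p was 0.866.

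The rest of the pathway was read from lists of further genes. Of 56 further S phase genes 51 were tested and 0 passed limma (2 at an unadjusted p under 0.05), with 17 below in both knockout-labelled libraries, 1 above and a median log2 fold of -0.18, beside -0.08 over all tested genes. These are 33.3% and 1.96% of the list, where 21.9% and 13.9% of all tested genes did so. After upper-quartile rescaling the counts were 13 and 4, or 25.5% and 7.84%, beside 18.6% and 17.4% of all tested genes. Gins3, another GINS subunit, stood at 2.24 and 4.23 in wild type against 7.63 and 7.59, with a log2 fold of 1.06, in the opposite direction to Gins2. Rpa3, a subunit of the single-strand binding protein, stood at 24.9 and 30.2 in wild type against 17.7 and 15.0, and Fen1, the flap nuclease of lagging-strand synthesis, at 17.2 and 21.3 in wild type against 10.8 and 13.9. Both lay lower in both knockout-labelled libraries. Slbp, the histone mRNA binding protein gene, was the most abundant of the list with 255 and 224 in wild type against 165 and 268.

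Further mitosis genes were read for the same counts and for the within-group order. Of 70 listed, 58 were tested and 0 passed (2 unadjusted), with 15 below in both knockout-labelled libraries, 3 above and a median log2 fold of -0.04. The share below, 25.9%, was near the 21.9% of all tested genes, and the share above was 5.17% beside 13.9%. Wild type 2 was above wild type 1 for 49 of 58, knockout-labelled 1 above knockout-labelled 2 for 40 of 58, and both orders held for 35 of 58. Over all tested genes these orders had shares of 50.4%, 40.4% and 20.5%. Among the 51 tested further S phase genes they held for 36, 20 and 15. They held for 16, 8 and 6 of the 21 tested G1 and Rb-E2F genes described below. Among the 21 tested CDK inhibitors and quiescence genes they held for 16, 6 and 6. The higher level in wild type 2 was thus shared by these lists, at 70.6%, 76.2% and 76.2%. Cdkn3, a phosphatase gene that acts on CDKs, stood at 1.78 and 5.51 in wild type against 0 and 0.438, and Cenpn, a centromere protein gene, at 2.81 and 4.41 in wild type against 0.416 and 0.909. Both had higher values in wild type, with log2 folds of -1.83 and -1.47 and an adjusted p of 0.866 each by limma. Cdc25c, the phosphatase that activates CDK1, stood at 2.62 and 1.53 in wild type against 0 and 0.893. H2afz, encoding the histone variant H2A.Z, was the most abundant, with 118 and 165 in wild type against 81.7 and 115.

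Genes upstream of the cycle did not separate the groups by the test. Of 25 G1 cyclin, kinase and Rb-E2F genes 21 were tested and 0 passed (1 unadjusted), with 4 above and 3 below in both knockout-labelled libraries and a median log2 fold of 0.11. These are 19.0% and 14.3% of the list, beside 13.9% and 21.9% of all tested genes. Myc, a growth-promoting transcription factor of activated T cells, stood at 176 and 228 in wild type against 179 and 196, and E2f4, a repressive E2F of resting cells, at 62.9 and 56.0 in wild type against 89.0 and 69.4. E2f6, another repressive E2F, stood at 2.56 and 7.59 in wild type against 12.6 and 10.1, and Lin9, a core subunit shared by the DREAM and MYB complexes, at 3.10 and 9.57 in wild type against 10.3 and 11.0. For E2f6 and Lin9 wild type 1 was far below the other 3 libraries.

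Among 22 CDK inhibitors and quiescence factors 21 were tested and 0 passed (0 unadjusted), with 4 above and 0 below in both knockout-labelled libraries and a median log2 fold of 0.08. These are 19.0% and 0% of the list, beside 13.9% and 21.9% of all tested genes. Cdkn1a, encoding the CDK inhibitor p21, stood at 30.3 and 25.2 in wild type against 6.13 and 27.3. Only knockout-labelled 1 was low, and without it the log2 fold was -0.02 in place of -1.01. Cdkn2c, encoding the CDK4 and CDK6 inhibitor p18, stood at 7.41 and 8.46 in wild type against 14.4 and 9.07, and Foxo1, a transcription factor of T cell quiescence, at 10.3 and 13.3 in wild type against 18.4 and 13.7. Klf2, which keeps T cells quiescent, stood at 702 and 1088 in wild type against 1131 and 981, above every member. Fen1, Slbp, Cdc25c, H2afz, Cdkn1a and Foxo1 have a near-identical copy or an antisense neighbour in the annotation and share the uncertainty given above.

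**Figure D5:**
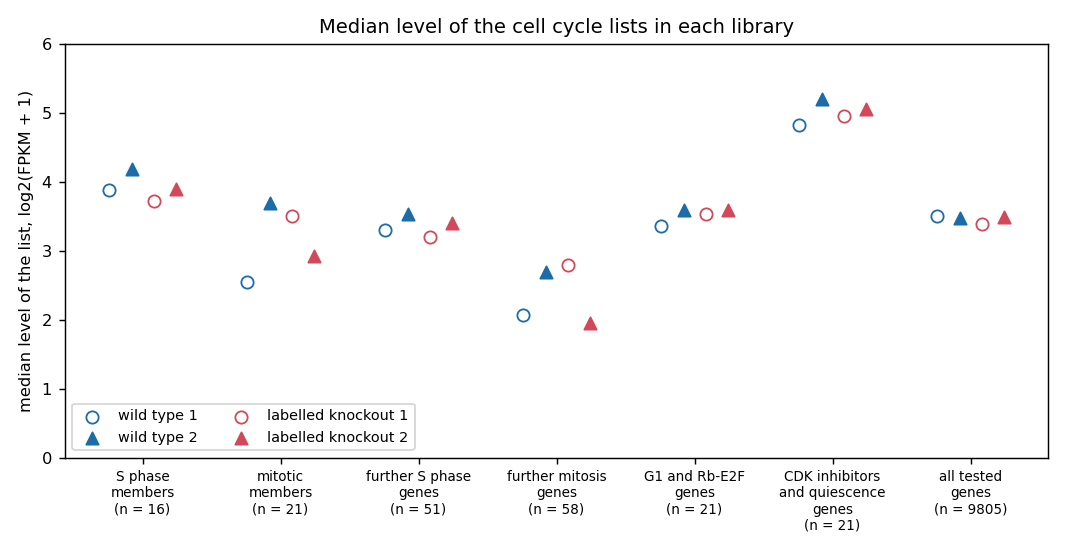
Median level of each list in each library, log2(FPKM + 1), with wild type in blue, labelled knockout in red, replicate 1 as open circles and replicate 2 as filled triangles. The mitotic members (2.55 and 3.69 in wild type, 3.51 and 2.93 in knockout-labelled libraries) and the further mitosis genes spread over the libraries, while the median of all tested genes lies between 3.39 and 3.50.

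Markers of CD8 T cells and of other cells that a liver sort could hold were set beside the mitotic order. Of the 10 marker lists given here, 1 had a summed level that was higher both in wild type 2 than in wild type 1 and in knockout-labelled 1 than in knockout-labelled 2. This was the stellate cell list, at 0.0236 and 0.901 FPKM in wild type against 11.9 and 0.313 over 5 genes, with Col1a2 at 0 everywhere. Nearly all of that sum was Dcn, at 0.0236 and 0.901 in wild type against 11.2 and 0.313. Col1a1, Col3a1 and Lrat were above 0 in knockout-labelled 1 alone. Liver endothelial markers summed to 152 and 33.1 in wild type against 302 and 72.3 over 10 genes. They were lower in wild type 2 than in wild type 1, and higher in knockout-labelled 1 than in knockout-labelled 2. Macrophage markers (11 genes) summed to 69.3 and 45.2 against 166 and 61.8, and B cell markers (7 genes) to 58.5 and 78.0 against 51.2 and 125. Of the macrophage genes Csf1r, Marco and Cd5l kept the mitotic order, and the others did not. Csf1r stood at 17.08 and 17.13 in wild type against 38.2 and 24.3.

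CD4 and regulatory T cell markers (3 genes) summed to 6.13 and 25.5 against 12.1 and 22.6, with Foxp3 at or near 0. Neutrophil markers (9 genes) summed to 228 and 241 against 105 and 143, and dendritic cell markers (6 genes) to 16.05 and 5.53 against 14.3 and 10.2. NK cell markers (4 genes) summed to 12.0 and 10.5 against 16.9 and 14.6. Most of the NK cell sum was Eomes, at 9.07 and 9.57 in wild type against 14.1 and 11.8. Ncr1 was above 0 in knockout-labelled 1 alone, at 0.753. Hepatocyte markers (8 genes) summed to 18.1 and 13.9 against 21.8 and 10.6, with Ttr, Fgb and Cps1 at 0 everywhere. Of the hepatocyte sum, Trf made up 18.1 and 10.4 in wild type against 8.28 and 9.58. Alb, Apoa1, Serpina1a and Cyp3a11 kept the mitotic order at lower levels, with Alb at 0 and 0.950 in wild type against 7.65 and 0.172. The CD8 T cell list (8 genes) summed to 3478 and 3346 against 2711 and 3292. Cd2 had the largest part in the low sum of knockout-labelled 1, at 1196 and 929 in wild type against 575 and 1185. Cd3d, Cd3g, Lck and Cd247 were also lowest in that library, while Cd8a, Cd8b1 and Cd3e were not. The part of other cells in the cell cycle values was not tested.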

How the data were processed

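RNA of sorted hepatic CD8 T cells was sequenced on an Illumina HiSeq from TruSeq RNA libraries, per the labels (a kit that does not mark strand). Groups and replicate numbers came from sample titles, and the labels do not say that replicates were separate animals, so p-values cover only the spread among these 4 samples, which may be technical. Per the submitters' processing notes, the tools and builds listed are Bowtie 0.12.2 and mm8, with no step given. No source used here names the quantifier or annotation. Each symbol had 1 deposited value per library. Its unit is not named, and the deposited values were read as FPKM, being fractional, with unequal column sums and lower smallest values for longer transcripts. Low values showed no steps of whole reads, so depth is unknown. No mm8 reference was used.

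Values were analysed as log2(FPKM + 1) for genes with a mean of at least 1, with limma 3.58.1 (R 4.3.3): moderated test with intensity trend, two-sided, Benjamini-Hochberg over all 9805 genes, threshold 0.05. An exact permutation test of 2 against 2 cannot go below 0.333. The procedure was tested on simulated data. Alternatives were the replicate block, leaving out each library (its partner is then assumed to vary like the other group), no filter or a minimum mean of 5, then upper-quartile, median or quantile scaling, pseudocounts of 0.1 and 5, no trend, robust moderation, a threshold of 0.1, and the mitotic set without Ccna2, Mki67, Stmn1 and Hmgb2. Sets without members with a copy (BLAST 2.17.0) or antisense gene, the within-group orders, and counts under rescaling were added after the values were seen. The members and lists were chosen with earlier results of these data known. Named were all members and, of each further list, the 3 genes with the smallest unadjusted p and the most abundant. Jchain, Adgre1, Ly6g, Pdgfrb and Tubb2c were not matched in the table. Another marker list is not reported here. Promoters are RefSeq's. Figures used matplotlib 3.10.9.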

Additional observations from a re-analysis of the deposited data

How the results depend on the processing

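The count of 0 members called by limma held under all 15 alternatives, and the smallest adjusted p of a member lay between 0.149 (knockout-labelled 2 left out) and 1.00. Over all tested genes the count of 0 became 1 without wild type 2 and 1 without knockout-labelled 2 (range 0 to 1 with a library left out) and was 0 under the other alternatives, beside 470 genes at an unadjusted p under 0.05. The median log2 folds moved by less than the spread between replicates (SD 0.17 for S phase, 0.64 for mitotic members) in each alternative, but the S phase median was below 0 with each library left out and the mitotic median changed sign with wild type 1 or knockout-labelled 1 left out, and was -0.08 without members with a copy or antisense gene. The difference in the mitotic minus S phase contrast, 0.19, lay between 0.06 and 0.31 under the scaling, filter, pseudocount and set alternatives.

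Of 37 tested members 27 changed the sign of their log2 fold when 1 library was left out, 11 of S phase and 16 mitotic, as did 3 of the 16 further genes named. The ranges over the 4 left-out libraries were, by gene, Ccne2 -0.28 to 0.095, Cdt1 -0.092 to 0.059, Mcm3 -0.028 to 0.42, Mcm4 -0.12 to 0.24, Mcm5 -0.31 to 0.51, Mcm6 -0.12 to 0.019, Mcm7 -0.073 to 0.16, Pcna -0.95 to 0.044, Rrm2 -1.32 to 0.060, Tyms -0.072 to 0.32, Tk1 -0.059 to 0.18, Plk1 -0.56 to 0.69, Aurka -0.18 to 1.10, Aurkb -0.85 to 0.43, Birc5 -0.61 to 0.44, Cdca8 -0.25 to 0.60, Bub1 -0.14 to 2.02, Bub1b -0.53 to 1.00, Cenpe -1.02 to 0.76, Ube2c -0.86 to 1.31, Kif11 -0.12 to 1.04, Kif20a -0.38 to 0.94, Nusap1 -0.29 to 1.03, Tpx2 -0.86 to 0.40, Mki67 -0.62 to 0.44, Top2a -0.72 to 0.85, Hmgb2 -0.085 to 0.17, Slbp -0.53 to 0.17, Myc -0.28 to 0.091, Klf2 -0.047 to 0.59. Under rescaling Cdt1 became 0.066 (upper quartile), 0.034 (median) and 0.091 (quantile), and Mcm6 became 0.035, 0.0030 and 0.043. Quantile scaling gave Birc5 0.014 and Myc 0.028, and a pseudocount of 5 gave Cenpe 0.011. The cause was not tested.

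With the replicate number as a block, 0 members and 0 genes were called and each log2 fold was the same. The numbers are not stated to mark a shared animal or batch, and deviations of same-numbered libraries correlated at 0.07 across genes. Depth is unknown, so no limit from counting can be given, and with 2 libraries a group the median standard error of a member was 0.43 on the log2 scale.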
